A study of Mus musculus with 8 samples.

Results

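Setdb1, Trim28, Ehmt1, Ehmt2, Suv39h1, Suv39h2, Cbx1, Cbx3, Cbx5 and Morc1 encode enzymes, corepressors and readers of silent chromatin that carries methylated lysine 9 on histone H3 (H3K9). They were chosen by name: a locus of the deposited tables was taken when its gene name, split at commas, held any of these symbols, and a gene with several loci was represented by the locus with the highest mean level. All 10 were found, among 23694 distinct gene names in the table of female samples and 23409 in the table of male samples.

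The study asked what germ cells of the mouse fetus need the SWI/SNF chromatin remodeler for, by deleting its core subunit SNF5, which the files list as Smarcb1. RNA-Seq was run on germ cells of E15.5 gonads, sorted by an Oct4-EGFP transgene that all embryos used for sorting carried. There are 8 libraries, 2 each for female control (Ctrl), female conditional knockout (CKO), male Ctrl and male CKO, which the methods call biological duplicates. Amplified cDNA was sequenced, and the tables give FPKM, fragments scaled by transcript length and by mapped fragments, without counts, so the depth behind each value is unknown.

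CKO embryos carried a floxed and a deleted Snf5 allele together with TNAP-Cre, a Cre sequence knocked into Alpl, the gene of tissue nonspecific alkaline phosphatase. The deletion removes exon 1 of Snf5. Control samples mixed embryos of 3 genotypes: floxed with wild-type Snf5, floxed with deleted Snf5 and no Cre, and floxed with wild-type Snf5 plus TNAP-Cre. So some control cells also had only 1 intact Snf5 allele or carried Cre. The labels give the strain as C57BL/6, while the methods describe a mixed background of several strains, C57BL/6 and ICR among them. The paper gives limits of the model: Cre is reported to act mostly after germ cells have reached the gonad, and the share of germ cells that still stained for SNF5 varied between mice. The supplement lists several embryos for each female and each male Ctrl sample, 2 rows of 1 embryo for male CKO replicate 1 and a single embryo for male CKO replicate 2.

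Methylation of H3K9 is laid down by several enzymes with different tasks. SETDB1 is brought to retrotransposons and some genes by the corepressor TRIM28 and its zinc finger partners, EHMT1 and EHMT2 (GLP and G9a) dimethylate H3K9 in gene-rich chromatin, and SUV39H1 and SUV39H2 trimethylate it at pericentromeric repeats, where the HP1 proteins encoded by Cbx1, Cbx3 and Cbx5 bind the mark. MORC1 is a germline ATPase known for silencing transposons in fetal male germ cells, at an age when these cells rest in mitotic arrest and renew DNA methylation while female germ cells are in meiosis.

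Each sex has its own table, and how the tables were normalized is not given. Every test therefore compares CKO with Ctrl within a sex, and levels of the sexes stand side by side without a test. Values were compared as log2(FPKM + 1) with limma over all genes whose mean reached 1 FPKM, 11529 in females and 12279 in males. That mean is over all 4 libraries of a sex, so a gene can pass by its level in 1 genotype, and among genes at low levels those that differ pass more easily. A gene is called higher or lower in CKO when its p, adjusted over all these genes by the method of Benjamini and Hochberg, is under 0.05. Adding 1 before the logarithm understates the changes of genes at low levels, and an exact two-sided permutation test of 2 libraries against 2 cannot give a p below 0.333. In all libraries the replicate number was treated as a possible shared batch, since the labels name the raw files of replicates 1 and 2 in different styles. A fit with that number as a block, the paired fit, is given where it changes the call of a gene whose values are given or the counts of a list.

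The labels were first checked against genes that define them. Smarcb1 was at 23.4 and 22.3 FPKM in female Ctrl replicates 1 and 2 and at 4.24 and 2.47 FPKM in female CKO, and at 141 and 167 FPKM in male Ctrl and 8.73 and 10.1 FPKM in male CKO. Both CKO groups thus lay below their controls without reaching 0, in values that cover the whole gene and not exon 1 alone. The Y-linked gene Ddx3y was listed at 0 in all 4 female libraries and lay between 5.48 and 8.79 FPKM in the male ones.

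Germ cell markers were abundant in all groups, and several markers of gonadal somatic cells differed with genotype. In females the 6 germ cell markers (Ddx4, Dazl, Pou5f1, Dppa3, Sycp3 and Mael) summed to 4521 and 4338 FPKM in the controls and 2964 and 3191 FPKM in CKO. Sycp3 was the most abundant of them in the female controls and Dppa3 in female CKO. In males they summed to 4596 and 4793 FPKM in the controls and 4334 and 4847 FPKM in CKO, with Dppa3 the most abundant. Of these 6 genes, 2 rose and 2 fell in females, beside 26.9% and 34.6% of all genes tested. The risers were the pluripotency genes Pou5f1, whose reporter served for sorting, from 8.63 and 16.7 to 295 and 333 FPKM, and Dppa3, from 41.2 and 61.3 to 1406 and 1633 FPKM, while Sycp3, part of the meiotic chromosome axis, fell from 2667 and 2445 to 180.1 and 252 FPKM and Mael, a piRNA pathway gene, fell as well. In males 3 of the 6 fell, namely Ddx4, Sycp3 and Mael, beside 25.3% of all genes tested. With the replicate block Ddx4 and Dazl were also called lower in females (adjusted p 0.000717 and 0.00463), and Dazl, Pou5f1 and Dppa3 were called higher in males (adjusted p 0.00108, 0.000241 and 0.00166). In that fit 42.6% of all genes tested were lower in females and 35.1% were higher in males. Germ cell markers were thus present in all 8 libraries, in other proportions in CKO than in Ctrl.

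In males 7 Sertoli cell markers summed to 40.5 and 29.2 FPKM in the controls and 146 and 196 FPKM in CKO. All 7 rose, beside 21.0% of all genes tested, and Amh was the most abundant (17.3 and 16.5 FPKM in Ctrl, 69.7 and 119.5 FPKM in CKO). Cldn11, at 0.151 and 0.171 FPKM in male Ctrl, passed the filter by its level in CKO. In females the Sertoli sum was 3.11 and 3.55 FPKM in the controls and 9.88 and 6.98 FPKM in CKO. Gata4 was the most abundant there and rose, and Dhh and Cldn11 were listed at 0 in some libraries. Wt1 and Nr5a1 were called higher as well, but their Ctrl means were under 1 FPKM, and the other 4 genes, Sox9 and Amh among them, were too low to be tested. The 7 pre-granulosa markers, which share Wt1 and Gata4 with the Sertoli list, summed to 7.14 and 10.3 FPKM in the controls and 29.5 and 25.3 FPKM in CKO in females. All 7 rose there, beside 26.9% of all genes tested, and Fst had the highest mean. Foxl2, Wnt4 and Wt1 had Ctrl means under 1 FPKM, so they passed the filter by their level in CKO. In males the same markers summed to 19.2 and 16.0 FPKM in the controls and 35.4 and 32.7 FPKM in CKO. Of 4 tested genes 2 were higher (the shared Wt1 and Gata4) and 1 lower (Rspo1), beside 21.0% and 25.3% of all genes tested. Rspo1 was the most abundant in the male controls and Gata4 in male CKO, and Foxl2 was listed at 0 in some library.

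Leydig cell markers, 5 genes, summed to 85.7 and 58.2 FPKM in the controls and 19.2 and 15.1 FPKM in CKO in males, where 3 of 5 fell (4 in the paired fit), and to 4.74 and 4.89 FPKM in the controls and 12.01 and 11.8 FPKM in CKO in females, where 1 of 2 tested rose (2 in the paired fit). The most abundant locus of that list merges Insl3 with Jak3, and Cyp11a1 and Cyp17a1 were listed at 0 in some female library. Stromal markers, 7 genes with Col3a1 the most abundant, summed to 22.1 and 11.3 FPKM in the controls and 4.63 and 3.06 FPKM in CKO in males, with 3 of 4 tested genes lower (4 in the paired fit), and to 13.5 and 6.27 FPKM in the controls and 4.08 and 5.26 FPKM in CKO in females, with 1 of 2 lower. Of these, Col1a1 in both sexes and Pdgfra and Col1a2 in males had CKO means under 1 FPKM, so they passed the filter by their level in Ctrl. Col1a2 was the stromal gene that the paired fit added in males. Hsd3b1, the Leydig gene that the paired fit added in females, had a Ctrl mean of 0.443 FPKM and passed by its level in CKO. Blood and endothelial markers, 8 genes led by the locus of Hbb-b1 and Hbb-bs, differed widely between replicates in females, at 26.1 and 118 FPKM in the controls and 3.38 and 83.8 FPKM in CKO in females and 52.9 and 93.5 FPKM in the controls and 51.1 and 58.4 FPKM in CKO in males. None of the 3 tested loci of that list was called in either sex, while the paired fit called all 3 lower in females. Beside the counts of these somatic lists, 26.9% of all genes tested were higher and 34.6% lower in females, and 21.0% and 25.3% in males. In the paired fit these shares were 34.1% and 42.6% in females and 35.1% and 41.2% in males. Ptprc was listed at 0 in some libraries of both sexes and Cdh5 in some of the females. Thus the Sertoli sum was higher and the stromal sum lower in CKO of both sexes, while the Leydig sum was lower in males and higher in females, all far under the germ cell sums. Their part in the results on H3K9 genes was not tested.

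**Figure D1:**
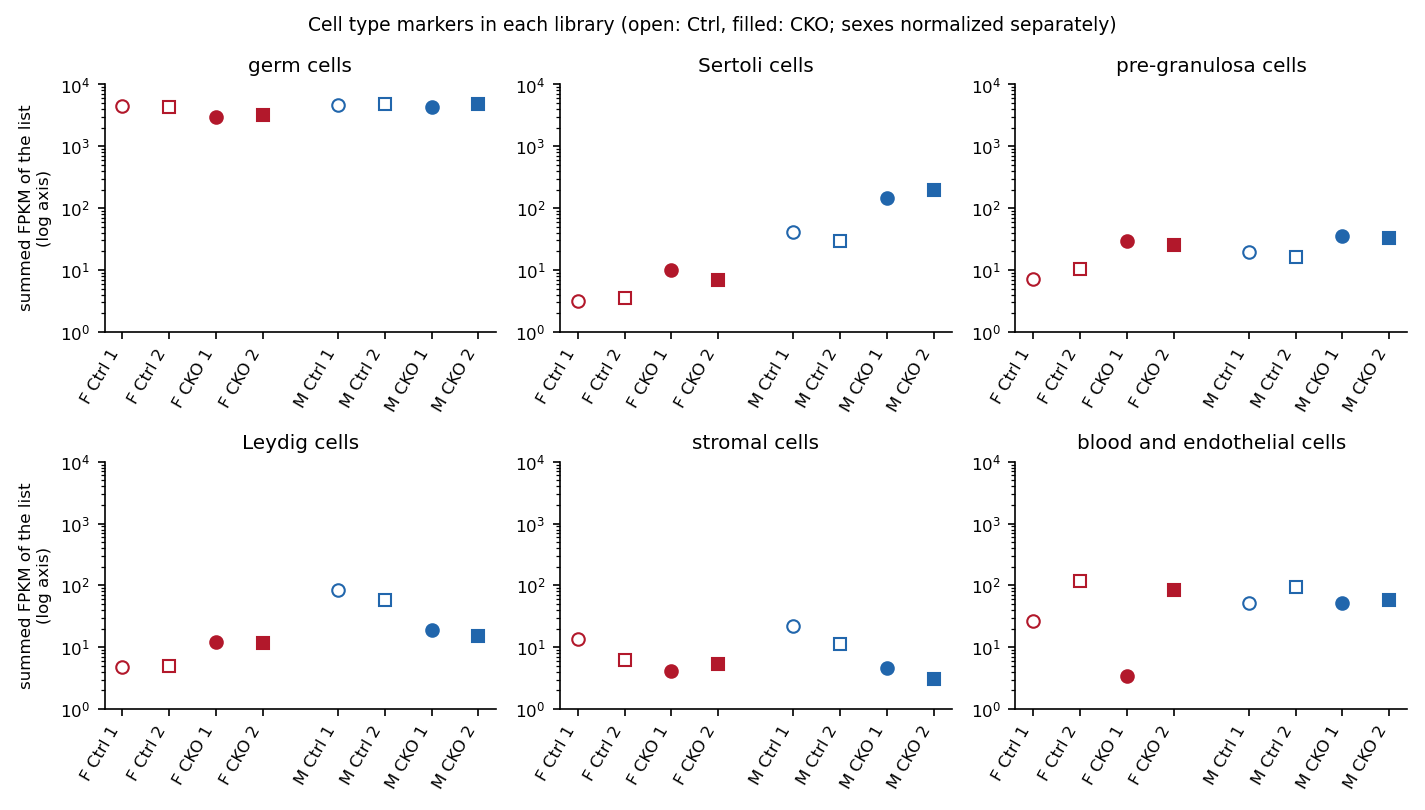
Summed FPKM of each cell type's marker list in every library (log axis), open symbols for Ctrl and filled ones for CKO, circles for replicate 1 and squares for replicate 2, females in red and males in blue. Germ cell sums lie between 2964 and 4847 FPKM in all 8 libraries, while the Sertoli sum of males is 40.5 and 29.2 FPKM in Ctrl and 146 and 196 FPKM in CKO.

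All 10 genes passed the filter on low values in both sexes, and they differed between CKO and Ctrl in both directions. In female CKO germ cells 4 of the 10 rose (Trim28, Ehmt2, Cbx5 and Morc1), beside 26.9% of all genes tested, and 3 fell (Setdb1, Suv39h1 and Cbx1), beside 34.6% of all genes tested. In male CKO germ cells 1 rose (Cbx1), beside 21.0% of all genes tested, and 2 fell (Ehmt2 and Morc1), beside 25.3%. Asking also for a log2 fold change of 1 or more in size leaves 3 higher genes in females (Trim28, Ehmt2 and Morc1), beside 17.3%, 2 lower ones (Setdb1 and Suv39h1), beside 21.6%, and in males 1 higher (Cbx1), beside 14.4%, and 2 lower (Ehmt2 and Morc1), beside 17.4%. By adjusted p alone the share of the 10 was above that of all genes for higher genes in females and under it in the other 3 counts, and with the fold change added it was above for higher genes in females and for lower genes in males. With the replicate block, 5 rose and 4 fell in females, beside 34.1% and 42.6% of all genes tested. In males 5 rose and 3 fell with the block, beside 35.1% and 41.2%, as 4313 and 5058 of all genes tested rose and fell in place of 2580 and 3109. Without male Ctrl replicate 1 the higher count of all male genes was 1716, and without male CKO replicate 2 Ehmt1 joined Cbx1, so that 2 of the 10 rose. On linear FPKM the male call of Cbx1 was lost.

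Of all called genes, 43.8% were higher in females and 45.4% in males. Rescaling every male library to a common sum over named genes gave 34.0% instead and moved the median log2 fold change of all male genes by -0.19, while median-of-ratios rescaling moved that of all female genes by 0.14. Among the 10 genes these scalings turned the sign of Suv39h2 alone, whose change was near 0 in both sexes. The median log2 fold change of the 10 was 0.21 in females, beside -0.13 over all genes tested, and 0.23 in males, beside -0.072. Summed over the 10 genes, FPKM was 865 and 778 in female Ctrl, 747 and 718 in female CKO, 852 and 741 in male Ctrl, and 741 and 730 in male CKO. These totals carry the scaling of the tables, in which the FPKM of all named loci added up to between 606784 and 1004897 per library. Divided by those sums, CKO and Ctrl overlapped in both sexes, but within each replicate number CKO was lower than Ctrl. Unnamed loci, left out here, held 6.56% and 5.46% of all FPKM in replicate 1 of male Ctrl and CKO, 42.1% and 35.4% in replicate 2, and in females 36.7% and 35.3% in Ctrl and 9.94% and 28.2% in CKO. In male CKO replicate 2 the 10 most abundant named loci held 26.0% of named FPKM, beside 12.5% to 14.9% in the other libraries. In bulk RNA, fewer cells of a type and less RNA per cell cannot be told apart.

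**Figure D2:**
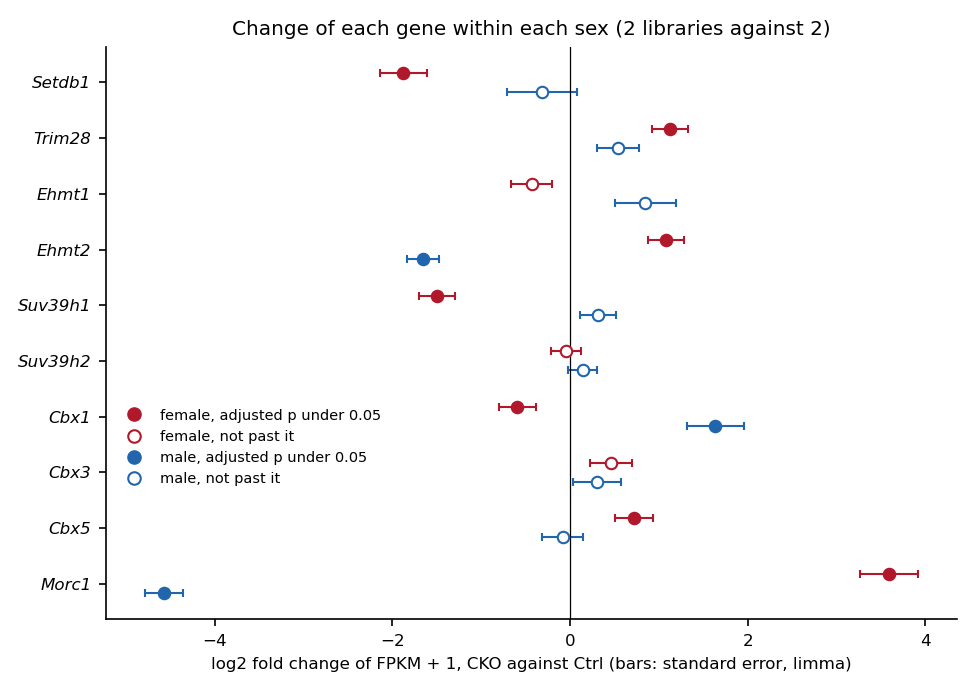
Log2 fold change of FPKM + 1 in CKO against Ctrl for each gene, females in red and males in blue, with limma standard errors (2 libraries against 2) and filled symbols for an adjusted p under 0.05. Morc1 lies farthest from 0 in both sexes, at 3.59 in females and -4.57 in males.

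Setdb1, the methyltransferase that silences endogenous retroviruses in germ cells, fell in females. Its level (locus chr3:95315252-95357443 of mm10 in the female table) was 226 and 157 FPKM in female Ctrl replicates 1 and 2 and 61.3 and 41.9 FPKM in the CKO replicates. Both controls were higher than both CKO libraries, and the means differed 3.71-fold (log2 fold change -1.87, standard error 0.26, limma adjusted p = 0.00112). The change was -1.86 between the replicate 1 libraries and -1.88 between the replicate 2 libraries, so it was nearly the same within each. In males Setdb1 was at 79.0 and 42.5 FPKM in Ctrl and 60.5 and 35.5 FPKM in CKO. The male groups overlapped, with replicate 1 above replicate 2 in each, and the difference did not pass the test (log2 fold change -0.32, standard error 0.40, limma adjusted p = 0.547). Paired by replicate number, adjusted p was 0.00710 with the replicate block and 0.00710 to 0.926 over all alternatives, and the sign turned without male Ctrl replicate 1 (0.12) or without male CKO replicate 2 (0.060). The female and the male locus of Setdb1 also cover Cers2 on the other strand, and the cDNA kit does not record the strand, so fragments where the genes overlap cannot be assigned.

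Trim28, the corepressor (KAP1) that brings SETDB1 to its targets, moved the other way in the same female cells. It was at 111 and 98.7 FPKM in female Ctrl and 254 and 207 FPKM in female CKO. The CKO libraries were both above the controls, with means 2.2-fold apart (log2 fold change 1.13, standard error 0.20, limma adjusted p = 0.00290). In males Trim28 was at 204 and 162 FPKM in Ctrl and 296 and 237 FPKM in CKO. The male groups did not overlap either, but the difference did not pass the test (log2 fold change 0.54, standard error 0.24, limma adjusted p = 0.119). With replicates paired it did, since adjusted p was 0.000308 with the replicate block and 0.000308 to 0.499 over all alternatives. Hence the ratio of enzyme to corepressor transcript turned over in females: Setdb1 stood above Trim28 in both controls and below it in both CKO libraries.

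Ehmt1 and Ehmt2 encode GLP and G9a, which work as a heterodimer, and Ehmt2 changed in both sexes in opposite directions. In females Ehmt2 (chr17:34898492-34914050) was at 11.1 and 13.6 FPKM in Ctrl and 30.2 and 24.3 FPKM in CKO. It rose 2.21-fold by the means (log2 fold change 1.08, standard error 0.20, limma adjusted p = 0.00331), with both CKO libraries above both controls. In males it was at 132 and 110.0 FPKM in Ctrl and 39.3 and 35.8 FPKM in CKO. It fell there 3.21-fold by the means (log2 fold change -1.65, standard error 0.18, limma adjusted p = 0.00324), and the replicates of each male group lay close together. Its change was 1.37 between the replicate 1 libraries and 0.79 between the replicate 2 libraries in females, and -1.72 between the replicate 1 libraries and -1.59 between the replicate 2 libraries in males.

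Ehmt1 was lower than its partner in all groups but the female controls. Its level was 29.4 and 24.4 FPKM in female Ctrl and 24.0 and 16.0 FPKM in female CKO. These groups do not overlap but nearly touch, and the difference did not pass the test (log2 fold change -0.43, standard error 0.23, limma adjusted p = 0.147). In the paired fit it was called lower, as adjusted p was 0.0159 with the replicate block and 0.0159 to 0.673 over all alternatives. In males Ehmt1 was at 12.03 and 7.13 FPKM in Ctrl and 22.2 and 13.8 FPKM in CKO, both CKO libraries above both controls (log2 fold change 0.85, standard error 0.34, limma adjusted p = 0.0975). Whether it passed depended on the fit: adjusted p was 0.000622 with the replicate block and 0.000622 to 0.344 over all alternatives, and without male CKO replicate 2 the log2 fold change was 1.17 and passed.

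Suv39h1, an X-linked enzyme of pericentromeric H3K9 trimethylation, was the most abundant of the 10 genes in female controls and fell in female CKO. Its level (chrX:8061171-8074760) was 233 and 194 FPKM in female Ctrl and 81.9 and 68.2 FPKM in female CKO. The groups lay far apart, 2.84-fold by the means (log2 fold change -1.49, standard error 0.20, limma adjusted p = 0.000918), and the change was -1.50 between the replicate 1 libraries and -1.49 between the replicate 2 libraries. In males Suv39h1 was at 29.8 and 25.0 FPKM in Ctrl and 38.6 and 30.4 FPKM in CKO. Those values do not overlap, by a narrow margin, and did not pass the test (log2 fold change 0.32, standard error 0.20, limma adjusted p = 0.252); in the paired fit they did, where adjusted p was 0.00943 with the replicate block and 0.00943 to 0.842 over all alternatives.

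Suv39h2, its autosomal paralogue, lay between 25.6 and 37.6 FPKM in all 8 libraries. It was at 37.3 and 34.9 FPKM in female Ctrl and 37.6 and 32.5 FPKM in female CKO. The female groups overlapped (log2 fold change -0.045, standard error 0.17, limma adjusted p = 0.831), and the sign of this small difference turned without female Ctrl replicate 1 (0.0031) or female CKO replicate 2 (0.059) and with median-of-ratios rescaling (0.11). In males it was at 25.6 and 27.2 FPKM in Ctrl and 30.3 and 28.3 FPKM in CKO (log2 fold change 0.14, standard error 0.16, limma adjusted p = 0.499), with a log2 fold change of -0.038 after rescaling to a common sum. The estimates are loose: the lower confidence bound that Cufflinks gives was 0 in all 4 female libraries and in both male replicate 2 libraries, and the locus also covers Dclre1c on the other strand.

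Setdb1 and Suv39h1 fell together in female CKO cells, and Ehmt2 and Cbx1 changed in opposite directions in the sexes, so the promoters of these 4 genes are shown, 5′ to 3′ on the strand of the gene. They come from RefSeq on GRCm38.p6, the build also called mm10, and run from 250 bases before the start of transcription to 50 bases after it. The promoter of Setdb1 lies at chr3:95357153-95357452 on the minus strand, the downstream and the upstream start of Suv39h1 at chrX:8074312-8074611 and chrX:8074711-8075010 on the minus strand, the upstream start of Ehmt2 at chr17:34898224-34898523 on the plus strand and Cbx1 at chr11:96788885-96789184 on the plus strand. Capitals mark the motifs searched for.
Setdb1: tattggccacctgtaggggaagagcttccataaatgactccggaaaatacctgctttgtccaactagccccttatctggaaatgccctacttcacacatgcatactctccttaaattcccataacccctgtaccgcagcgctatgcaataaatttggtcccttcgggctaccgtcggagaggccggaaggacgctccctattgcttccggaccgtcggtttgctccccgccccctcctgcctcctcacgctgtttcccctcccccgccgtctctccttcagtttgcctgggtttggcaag
Suv39h1, downstream start: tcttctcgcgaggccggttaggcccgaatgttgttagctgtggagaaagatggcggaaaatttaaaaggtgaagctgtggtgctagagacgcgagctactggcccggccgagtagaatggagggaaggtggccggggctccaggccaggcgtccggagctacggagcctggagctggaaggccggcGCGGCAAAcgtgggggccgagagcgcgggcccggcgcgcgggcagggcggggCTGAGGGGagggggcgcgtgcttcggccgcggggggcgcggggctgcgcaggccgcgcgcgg
Suv39h1, upstream start: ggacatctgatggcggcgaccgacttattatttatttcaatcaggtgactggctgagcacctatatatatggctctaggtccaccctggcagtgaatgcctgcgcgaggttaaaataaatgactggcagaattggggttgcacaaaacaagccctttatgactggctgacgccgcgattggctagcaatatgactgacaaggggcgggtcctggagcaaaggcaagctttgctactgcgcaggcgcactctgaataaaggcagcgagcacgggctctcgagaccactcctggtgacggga
Ehmt2, upstream start: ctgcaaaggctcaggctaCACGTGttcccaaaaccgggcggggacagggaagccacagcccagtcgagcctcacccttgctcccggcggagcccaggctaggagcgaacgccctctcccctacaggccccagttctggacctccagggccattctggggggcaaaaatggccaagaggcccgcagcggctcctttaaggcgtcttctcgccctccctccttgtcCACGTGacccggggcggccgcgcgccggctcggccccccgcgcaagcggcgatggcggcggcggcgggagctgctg
Cbx1: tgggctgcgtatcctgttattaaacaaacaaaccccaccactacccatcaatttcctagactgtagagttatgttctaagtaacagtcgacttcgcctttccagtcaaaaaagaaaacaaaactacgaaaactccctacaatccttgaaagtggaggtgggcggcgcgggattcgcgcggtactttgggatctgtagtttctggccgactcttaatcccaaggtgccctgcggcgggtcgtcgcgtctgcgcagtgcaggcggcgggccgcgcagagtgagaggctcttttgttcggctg

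The motifs were searched as letters on both strands in 32817 promoters of 300 bases, and 9 of the 10 genes, all but Morc1, matched, with 13 entries. They were E2F-like TTTGGCGC (in 0.515% of all promoters), TTTCCCGC (1.07%), TTTGCCGC (0.439%) and TTTCGCGC (0.323%), of which any was found in 2.26%, the E-box CACGTG (7.15%), and CNCCTCAG (7.94%). In Suv39h1 the downstream promoter held GCGGCAAA, the reverse complement of TTTGCCGC, starting 64 bases before the start of transcription, and CTGAGGGG, a reverse match of CNCCTCAG, starting 12 bases before it. Ehmt2 held CACGTG at 232 and 26 bases before its upstream start, and at 236 bases before its other start. Of the genes not printed, Cbx3 held TTTGGCGC at 168 bases, Cbx5 held CACGTG at 136 bases and Trim28 held CTGAGGAG at 33 bases before a start. No match overlapped another in these genes. No such letters were found in these windows of Setdb1, Ehmt1, Suv39h2, Cbx1 or the upstream start of Suv39h1. The GC content was 55.3% for Setdb1, 71.0% and 53.0% for the downstream and upstream starts of Suv39h1, 70.3% for the upstream start of Ehmt2 and 52.7% for Cbx1, beside a median of 52.7% over all promoters. As the Setdb1 window held no match at all, it could share no motif with Suv39h1, and nothing follows from this for their joint fall.

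The 3 HP1 genes encode readers of methylated H3K9. In the unpaired fit Cbx1 (HP1 beta) was the only member of the 3 called in both sexes, in opposite directions, while the paired fit also called Cbx3 higher in both. The female level of Cbx1 (chr11:96787654-96808640) was 122 and 134 FPKM in Ctrl and 73.2 and 97.6 FPKM in CKO. Both CKO libraries were below the controls, 1.5-fold by the means (log2 fold change -0.59, standard error 0.20, limma adjusted p = 0.0409). This call is weak: it was lost without female Ctrl replicate 1 (-0.65), without female Ctrl replicate 2 (-0.53) and without female CKO replicate 1 (-0.39), as well as with no filter, a common sum or median-of-ratios rescaling, with adjusted p from 0.00198 to 0.278 over all alternatives. In males Cbx1 was at 26.2 and 43.0 FPKM in Ctrl and 87.3 and 130.3 FPKM in CKO. The rise there was larger, 3.14-fold by the means (log2 fold change 1.64, standard error 0.32, limma adjusted p = 0.0139), and was 1.70 between the replicate 1 libraries and 1.58 between the replicate 2 libraries. Replicate 2 was above replicate 1 in all 4 groups. The male call was lost on linear FPKM and kept on the log2 scale with each library left out, at 1.29 to 1.98.

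Cbx3 (HP1 gamma) was the most abundant HP1 gene in male libraries and in female CKO. It was at 81.8 and 109 FPKM in female Ctrl and 113 and 152 FPKM in female CKO, and at 118 and 159.6 FPKM in male Ctrl and 144 and 199 FPKM in male CKO. Replicate 2 was higher in each group, the male groups overlapped, and neither difference passed the test. The female values were log2 fold change 0.47, standard error 0.23, limma adjusted p = 0.124, and in the paired fit adjusted p was 0.00196 with the replicate block and 0.00196 to 0.499 over all alternatives. The male values were log2 fold change 0.31, standard error 0.27, limma adjusted p = 0.388, and in the paired fit adjusted p was 0.00279 with the replicate block and 0.00279 to 0.898 over all alternatives. In females Cufflinks gave confidence intervals from 0 to between 303 and 476 FPKM for Cbx3, whose female locus also covers Hnrnpa2b1 on the other strand, and the annotation names 8 processed pseudogenes of it.

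Cbx5 (HP1 alpha) was the least abundant HP1 gene in every library. It rose in females, from 7.26 and 10.1 FPKM in Ctrl to 15.6 and 14.0 FPKM in CKO. The groups did not overlap and the means differed 1.71-fold (log2 fold change 0.72, standard error 0.21, limma adjusted p = 0.0222). The call was lost without female Ctrl replicate 1 (0.51), female CKO replicate 1 (0.65) or female CKO replicate 2 (0.80) and on linear FPKM. In males it was at 18.0 and 13.2 FPKM in Ctrl and 16.1 and 13.1 FPKM in CKO. These groups overlapped (log2 fold change -0.083, standard error 0.23, limma adjusted p = 0.789), and the sign turned without male Ctrl replicate 1 (0.12) or male CKO replicate 2 (0.059).

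Morc1 had the largest changes of the 10 genes, upward in females and downward in males. In male controls this transposon silencing gene (chr16:48431237-48630905) was at 209 and 151 FPKM, among the highest levels of the 10, and in male CKO at 6.52 and 6.49 FPKM. The means differed 27.7-fold (log2 fold change -4.57, standard error 0.21, limma adjusted p = 0.00213), and the male CKO libraries were alike. In female controls it was the lowest of the 10, at 6.19 and 2.53 FPKM, and in female CKO it was at 56.2 and 63.7 FPKM. The female rise was 13.7-fold by the means (log2 fold change 3.59, standard error 0.33, limma adjusted p = 0.000233), and was 2.99 between the replicate 1 libraries and 4.20 between the replicate 2 libraries. Whichever library was omitted, it was called, with a log2 fold change of 3.08 to 4.11 in females and -4.80 to -4.34 in males. Cufflinks gave the female controls confidence intervals that start at 0 and end at 12.6 and 5.77 FPKM, so the female fold rests on low control values. After the changes, female CKO cells held Morc1 at a level between the male groups, with values from separate tables and no test of the difference.

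**Figure D3:**
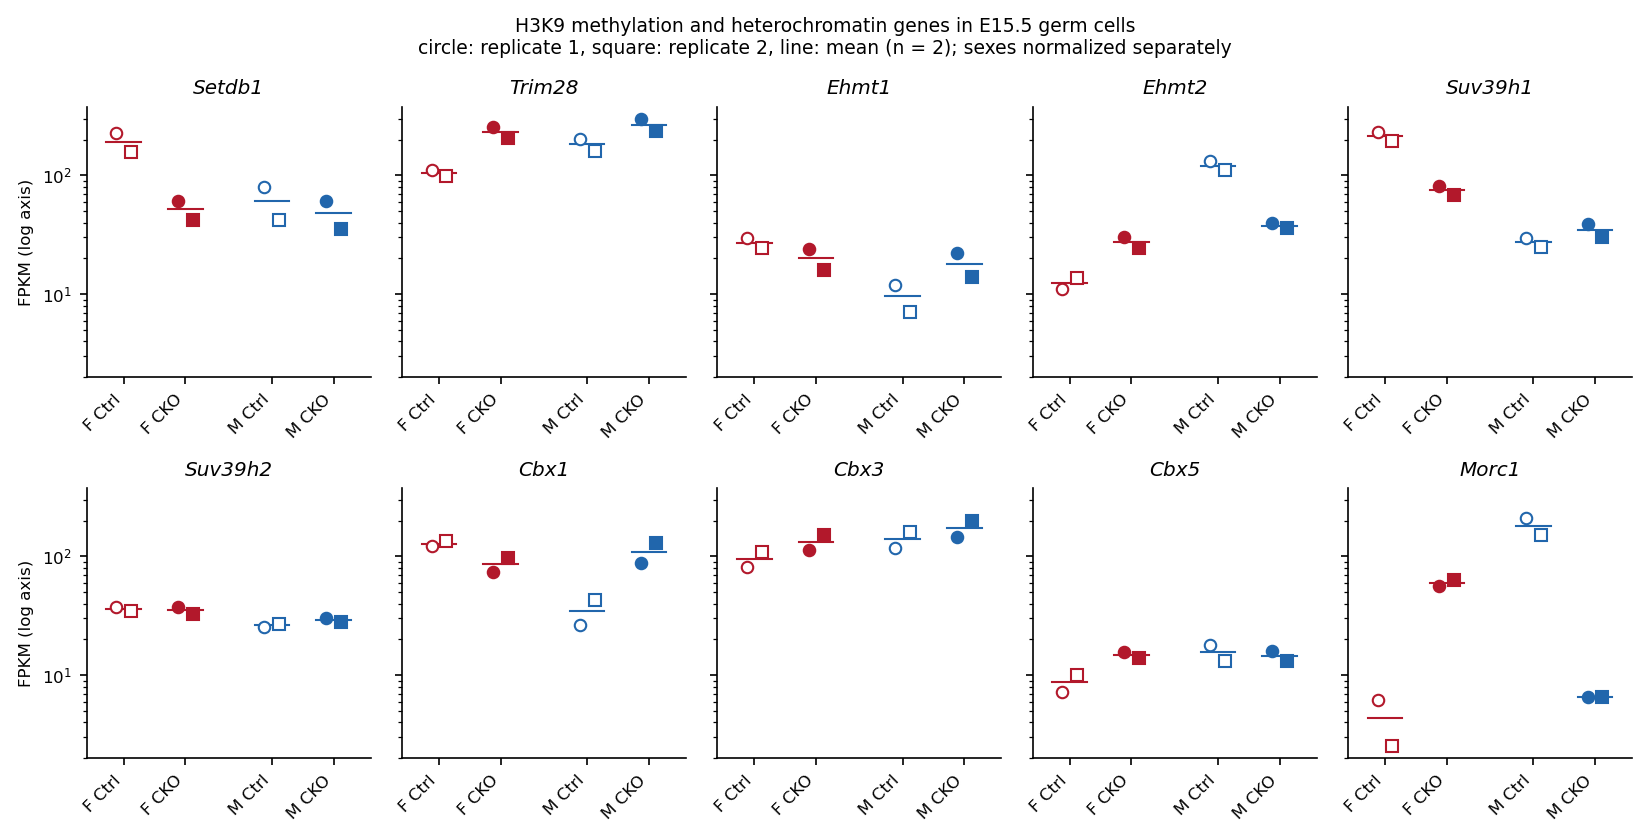
FPKM of each gene in all 8 libraries (log axis), open symbols for Ctrl and filled ones for CKO, circles for replicate 1, squares for replicate 2 and a line at the mean of 2 libraries. Morc1 goes from 6.19 and 2.53 FPKM in female Ctrl to 56.2 and 63.7 FPKM in female CKO, and from 209 and 151 FPKM in male Ctrl to 6.52 and 6.49 FPKM in male CKO.

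Ranked by mean FPKM, a length-scaled level, the genes changed places with genotype. In female controls the order was Suv39h1 (213), Setdb1 (192), Cbx1 (128), Trim28 (105), Cbx3 (95.5), Suv39h2 (36.1), Ehmt1 (26.9), Ehmt2 (12.3), Cbx5 (8.68) and Morc1 (4.36). Suv39h1 and Setdb1 overlapped there, as did Trim28 and Cbx3. In female CKO it was Trim28 (231), Cbx3 (132), Cbx1 (85.4), Suv39h1 (75.0), Morc1 (59.9), Setdb1 (51.6), Suv39h2 (35.0), Ehmt2 (27.2), Ehmt1 (20.01) and Cbx5 (14.8), with overlap of Cbx1 with Suv39h1 and of Morc1 with Setdb1. In male controls it was Trim28 (183), Morc1 (179.9), Cbx3 (139), Ehmt2 (121), Setdb1 (60.8), Cbx1 (34.6), Suv39h1 (27.4), Suv39h2 (26.4), Cbx5 (15.6) and Ehmt1 (9.58). Each of the neighbours from Trim28 to Ehmt2 and from Setdb1 to Suv39h2 overlapped there. In male CKO it was Trim28 (267), Cbx3 (172), Cbx1 (109), Setdb1 (48.0), Ehmt2 (37.6), Suv39h1 (34.5), Suv39h2 (29.3), Ehmt1 (18.0), Cbx5 (14.6) and Morc1 (6.51), with overlap of Setdb1, Ehmt2 and Suv39h1 as neighbours and of Ehmt1 with Cbx5. Trim28, Cbx3 and Cbx1 thus led in both CKO groups, in that order, while the leading genes of the controls differed by sex.

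The paralogues can also be set against each other within a library, where the scaling of the library drops out. Of the summed FPKM of the 3 HP1 genes, Cbx1 held 57.9% and 52.8% in the controls and 36.3% and 37.0% in CKO in females and 16.2% and 19.9% in the controls and 35.2% and 38.0% in CKO in males. Control shares lay on opposite sides of the CKO shares in the sexes, and all 4 CKO libraries fell between 35.2% and 38.0%. Cbx3 held 38.7% and 43.2% in the controls and 55.9% and 57.7% in CKO in females. In males it held 72.7% and 73.9% in the controls and 58.3% and 58.1% in CKO. Again the CKO libraries of both sexes were closer to each other than the controls were. The sexes differ in the locus behind these shares, since that of Cbx3 also covers Hnrnpa2b1 in females and not in males. Its Cufflinks interval started at 0 in every female library, so the female shares of all 3 genes are loose. Cbx5 held 3.43% and 3.99% in the controls and 7.75% and 5.32% in CKO in females and 11.1% and 6.12% in the controls and 6.5% and 3.81% in CKO in males, with overlap in males. The HP1 sum itself was 212 and 253 in the controls and 202 and 264 in CKO in females and 162 and 216 in the controls and 248 and 343 in CKO in males, in FPKM, with overlap in females.

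The G9a to GLP ratio, Ehmt2 FPKM over Ehmt1 FPKM, was 0.376 and 0.556 in the controls and 1.26 and 1.51 in CKO in females, and 10.9 and 15.4 in the controls and 1.77 and 2.59 in CKO in males. Ehmt1 was the more abundant transcript only in the female controls, and the ratios of the sexes lay nearer to each other in CKO than in Ctrl. Suv39h1 FPKM over Suv39h2 FPKM was 6.24 and 5.55 in the controls and 2.18 and 2.1 in CKO in females. In males it was 1.17 and 0.921 in the controls and 1.27 and 1.08 in CKO. Suv39h1 thus exceeded its paralogue in every female library, less so in CKO than in Ctrl. The size of that excess is loose, as the lower Cufflinks bound of Suv39h2 was 0 in every female library and its locus also covers Dclre1c. No test was made of these ratios with 2 libraries a group, and the difference between the sexes was not tested.

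**Figure D4:**
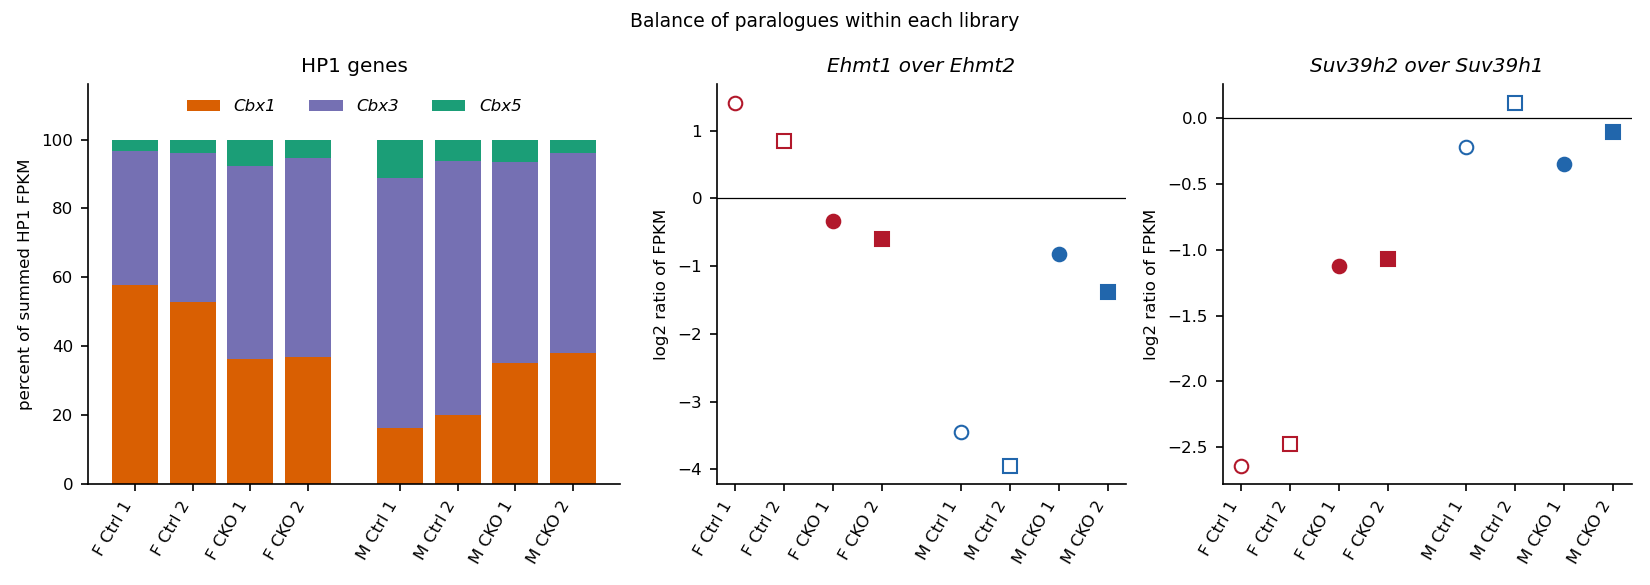
Share of Cbx1, Cbx3 and Cbx5 in their summed FPKM (left, stacked bars from 0 to 100 percent) and log2 ratios of Ehmt1 over Ehmt2 and of Suv39h2 over Suv39h1 (middle and right; open for Ctrl, filled for CKO) in each library. Cbx1 takes between 35.2% and 38.0% in the 4 CKO libraries, against 52.8% and 57.9% in female Ctrl and 16.2% and 19.9% in male Ctrl.

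Across the sexes, 5 of the 10 genes (Ehmt1, Ehmt2, Suv39h1, Cbx1 and Morc1) had CKO libraries all above Ctrl in a sex and all below in the other. Among all 10472 names tested in both tables, 2167, or 20.7%, had this pattern, and CKO lay wholly above Ctrl for 36.4% of genes tested in females and 34.5% in males, and wholly below for 45.1% and 40.0%. In the unpaired fit the 3 genes called in both sexes (Ehmt2, Cbx1 and Morc1) are all of this kind, though the female call of Cbx1 is weak. In the paired fit Ehmt1 and Suv39h1 were also called in both sexes, in opposite directions. Setdb1 was there called lower in both sexes, and Trim28 and Cbx3 were called higher in both. The difference between the sexes itself was not tested.

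Genes that work with the H3K9 enzymes were taken from lists drawn up by function. Of all 40 such genes, Zfp57 and Morc2b were under the filter in both sexes and Kdm4d in males. Thus 38 were tested in females, where 8 rose and 16 fell, beside 26.9% and 34.6% of all genes tested, and 37 in males, where 9 rose and 5 fell, beside 21.0% and 25.3%. Their median log2 fold change was -0.26 in females and 0.15 in males. With the replicate block 13 rose and 18 fell in females, beside 34.1% and 42.6% of all genes tested, and 17 rose and 12 fell in males, beside 35.1% and 41.2%. The male count of higher genes was 4 with rescaling to a common sum and also on linear FPKM, 4 without male Ctrl replicate 2 and 5 without male CKO replicate 1. The male count of lower genes was 2 without male Ctrl replicate 1, 3 without male CKO replicate 2, 2 on linear FPKM and 3 when only genes whose mean reached 5 FPKM were tested.

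Among cofactors of the methyltransferases 2 of 9 tested rose and 2 fell in females, beside 26.9% and 34.6% of all genes tested, with a median log2 fold change of -0.20. In the paired fit 3 rose and 3 fell, beside 34.1% and 42.6%. Setdb2, a relative of Setdb1, fell from 93.0 and 86.4 FPKM in Ctrl to 24.2 and 20.1 FPKM in CKO (log2 fold change -1.97, limma adjusted p = 0.000209). The SETDB1 partner Atf7ip and its paralogue Atf7ip2 moved apart. Atf7ip rose from 12.5 and 7.74 to 28.7 and 19.4 FPKM (log2 fold change 1.18, limma adjusted p = 0.00989, lost on linear FPKM), while Atf7ip2 fell from 109.8 and 89.4 to 29.3 and 27.1 FPKM (log2 fold change -1.78, limma adjusted p = 0.000324). Cdyl, a chromodomain corepressor, was at 11.8 and 10.1 FPKM in Ctrl and 16.8 and 16.1 FPKM in CKO (log2 fold change 0.55, limma adjusted p = 0.0322), a call that was lost on linear FPKM, with a common sum, without female Ctrl replicate 1 (0.65) or 2 (0.45) and without female CKO replicate 1 (0.52) or 2 (0.58).

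In males 1 of 9 cofactors rose and 1 fell, beside 21.0% and 25.3% of all genes tested, with a median of 0.15, and 4 rose and 2 fell in the paired fit, beside 35.1% and 41.2%. Cdyl2, in a locus merged with 4930563M20Rik, fell from 5.39 and 4.54 to 0.771 and 0.892 FPKM (log2 fold change -1.70, limma adjusted p = 0.00311), so that it passed the filter by its level in Ctrl. Atf7ip2 was at 12.2 and 13.1 FPKM in Ctrl and 19.7 and 19.0 FPKM in CKO (log2 fold change 0.58, limma adjusted p = 0.0420), a call lost on linear FPKM, with a common sum, without male Ctrl replicate 1 (0.53) or 2 (0.62) and without male CKO replicate 1 (0.55) or 2 (0.60). Atf7ip had the highest mean of the cofactors in males, at 61.9 and 33.9 FPKM in Ctrl and 33.3 and 20.3 FPKM in CKO. Its log2 fold change of -0.80 did not pass the test (limma adjusted p = 0.143). It passed without male CKO replicate 1 (-1.14) and in the paired fit, where adjusted p was 0.000390 with the replicate block and 0.000390 to 0.487 over all alternatives. The pair of SETDB1 partners thus had opposite signs within each sex, and each had opposite signs in the sexes.

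The HUSH complex spreads H3K9 trimethylation over transposons with SETDB1, and its genes were lower in female CKO. Of 6 tested genes of this list, which also holds the MORC genes other than Morc1, 4 fell and 1 rose in females, beside 34.6% and 26.9% of all genes tested, with a median of -1.03. All 3 core genes fell there. Tasor, listed as Fam208a, went from 33.4 and 24.4 to 14.9 and 12.6 FPKM (log2 fold change -1.01, limma adjusted p = 0.00577). Mphosph8, the chromodomain subunit, went from 145 and 185 to 66.6 and 83.8 FPKM (log2 fold change -1.13, limma adjusted p = 0.00382). Pphln1 went from 79.5 and 72.5 to 42.0 and 31.0 FPKM (log2 fold change -1.05, limma adjusted p = 0.00388). Their ATPase partner Morc2a fell too, from 154 and 109 to 41.6 and 26.9 FPKM (log2 fold change -1.92, limma adjusted p = 0.00109). The riser was Morc4, named after its value was seen, at a log2 fold change of 0.95.

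In males 1 of the 6 genes of that list rose and 0 fell, beside 21.0% and 25.3% of all genes tested, with a median of -0.25, and 2 rose and 3 fell in the paired fit, beside 35.1% and 41.2%. Morc4 rose from 0.237 and 0.137 FPKM in Ctrl to 3.16 and 2.91 FPKM in CKO (log2 fold change 1.77, limma adjusted p = 0.00260), so that it passed the filter by its level in CKO. Mphosph8, the most abundant, was at 96.1 and 143 FPKM in Ctrl and 50 and 79.1 FPKM in CKO (log2 fold change -0.89, limma adjusted p = 0.0726). It passed without male CKO replicate 2 (-1.21), with a common sum (-1.08) and in the paired fit, where adjusted p was 0.000118 with the replicate block and 0.000118 to 0.265 over all alternatives.

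Enzymes that remove H3K9 methylation were mostly lower in female CKO. In females 7 of 11 fell and 1 rose, beside 34.6% and 26.9% of all genes tested, with a median of -0.94. In the paired fit 7 fell and 3 rose, beside 42.6% and 34.1%. Kdm4d fell from 14.5 and 10.6 to 0.963 and 1.28 FPKM (log2 fold change -2.67, limma adjusted p = 0.000178), Phf8, an X-linked demethylase, from 122 and 98.4 to 26.4 and 20.5 FPKM (log2 fold change -2.19, limma adjusted p = 0.000241) and Kdm4b from 25.3 and 22.0 to 7.19 and 5.97 FPKM (log2 fold change -1.70, limma adjusted p = 0.000449). Kdm4a, of the same family, rose from 2.47 and 2.99 to 14.5 and 13.2 FPKM (log2 fold change 1.99, limma adjusted p = 0.000271). Kdm4c, named after its value was seen, fell from 15.7 and 12.8 to 5.02 and 4.55 FPKM (log2 fold change -1.39, limma adjusted p = 0.00111), so of the KDM4 genes, which act on trimethylated H3K9, 3 fell and 1 rose. Kdm1a, which removes methyl groups chiefly from H3K4, had the highest mean of the list, though Phf8 was higher in the controls. Kdm1a was at 62.6 and 51.6 FPKM in Ctrl and 90.9 and 71.4 FPKM in CKO (log2 fold change 0.50, limma adjusted p = 0.0688). It passed with median-of-ratios rescaling (0.65) and in the paired fit, where adjusted p was 0.00216 with the replicate block and 0.00216 to 0.349 over all alternatives.

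In males 4 of 10 tested demethylase genes fell, beside 25.3% of all genes tested, with a median of -0.44 and, in the paired fit, 6 lower and 1 higher, beside 41.2% and 35.1%. Kdm3a, a demethylase of mono- and dimethylated H3K9, went from 152 and 86.5 to 31.5 and 18.4 FPKM (log2 fold change -2.21, limma adjusted p = 0.00940, lost on linear FPKM). Phf8 went from 23.2 and 14.5 to 8.84 and 5.41 FPKM (log2 fold change -1.29, limma adjusted p = 0.0283), lost on linear FPKM, without male Ctrl replicate 1 (-0.97) and without male CKO replicate 2 (-0.98). Kdm1a, the most abundant in all male libraries, went from 233 and 173 to 105 and 77.2 FPKM (log2 fold change -1.15, limma adjusted p = 0.0196). This call was lost without male Ctrl replicate 1 (-0.94) and without male CKO replicate 2 (-0.93). For these 3 genes replicate 1 was the higher library of each male group. Kdm7a was at 2.73 and 2.36 FPKM in Ctrl and 1.51 and 1.15 FPKM in CKO (log2 fold change -0.61, limma adjusted p = 0.0477), a call lost with a pseudocount of 0.1, no filter, either rescaling, no trend or linear FPKM, without male Ctrl replicate 1 (-0.53) or 2 (-0.69) and without male CKO replicate 1 (-0.72) or 2 (-0.50).

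Genes that keep heterochromatin through replication and at the nuclear lamina were mostly higher in male CKO and mixed in females. In females 4 of 12 rose and 3 fell, beside 26.9% and 34.6% of all genes tested, with a median of 0.16, and 6 rose and 4 fell in the paired fit, beside 34.1% and 42.6%. Lmnb1, a nuclear lamin, rose from 4.95 and 3.19 to 23.2 and 19.2 FPKM (log2 fold change 2.15, limma adjusted p = 0.000414) and Atrx, a remodeler that loads histone H3.3 in heterochromatin, from 6.92 and 6.85 to 27.8 and 18.9 FPKM (log2 fold change 1.60, limma adjusted p = 0.00108). The other 2 risers, named after their values were seen, were Lmnb2 and Lbr. Kmt5c, listed as Suv420h2, which trimethylates lysine 20 of histone H4 downstream of H3K9 methylation, fell from 85.8 and 105 to 33.0 and 36.7 FPKM (log2 fold change -1.42, limma adjusted p = 0.000781). Its paralogue Kmt5b, named likewise, fell as well. Hells, a remodeler needed for DNA methylation of repeats, was the most abundant and fell from 444 and 391 to 209.5 and 173 FPKM (log2 fold change -1.13, limma adjusted p = 0.00428).

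In males 7 of the 12 rose, beside 21.0% of all genes tested, with a median of 0.80. In the paired fit 10 rose and 1 fell, beside 35.1% and 41.2%, while with a common sum 4 of all male related genes rose. Chaf1b, a subunit of the replication-coupled histone chaperone CAF-1, rose from 6.74 and 6.73 to 35.6 and 30.4 FPKM (log2 fold change 2.13, limma adjusted p = 0.00225). Uhrf1, which couples DNA methylation to replication and binds methylated H3K9, rose from 26.9 and 20.2 to 67.9 and 56.8 FPKM (log2 fold change 1.38, limma adjusted p = 0.00724). The lamins followed, Lmnb1 from 16.3 and 10.7 to 56.3 and 36.8 FPKM (log2 fold change 1.71, limma adjusted p = 0.0102, lost on linear FPKM) and Lmnb2 from 11.1 and 9.33 to 24.9 and 21.3 FPKM (log2 fold change 1.10, limma adjusted p = 0.00979), lost on linear FPKM, with a common sum (0.94) and without male Ctrl replicate 2 (0.99). Hells, the most abundant here too, was at 105 and 110.2 FPKM in Ctrl and 178 and 165 FPKM in CKO (log2 fold change 0.67, limma adjusted p = 0.0319), a call lost with a common sum, without male Ctrl replicate 1 (0.63) or 2 (0.70) and without male CKO replicate 1 (0.61) or 2 (0.72). The Sertoli marker sum was also higher in these male CKO libraries, as given with the markers, and its part in this was not tested.

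**Figure D5:**
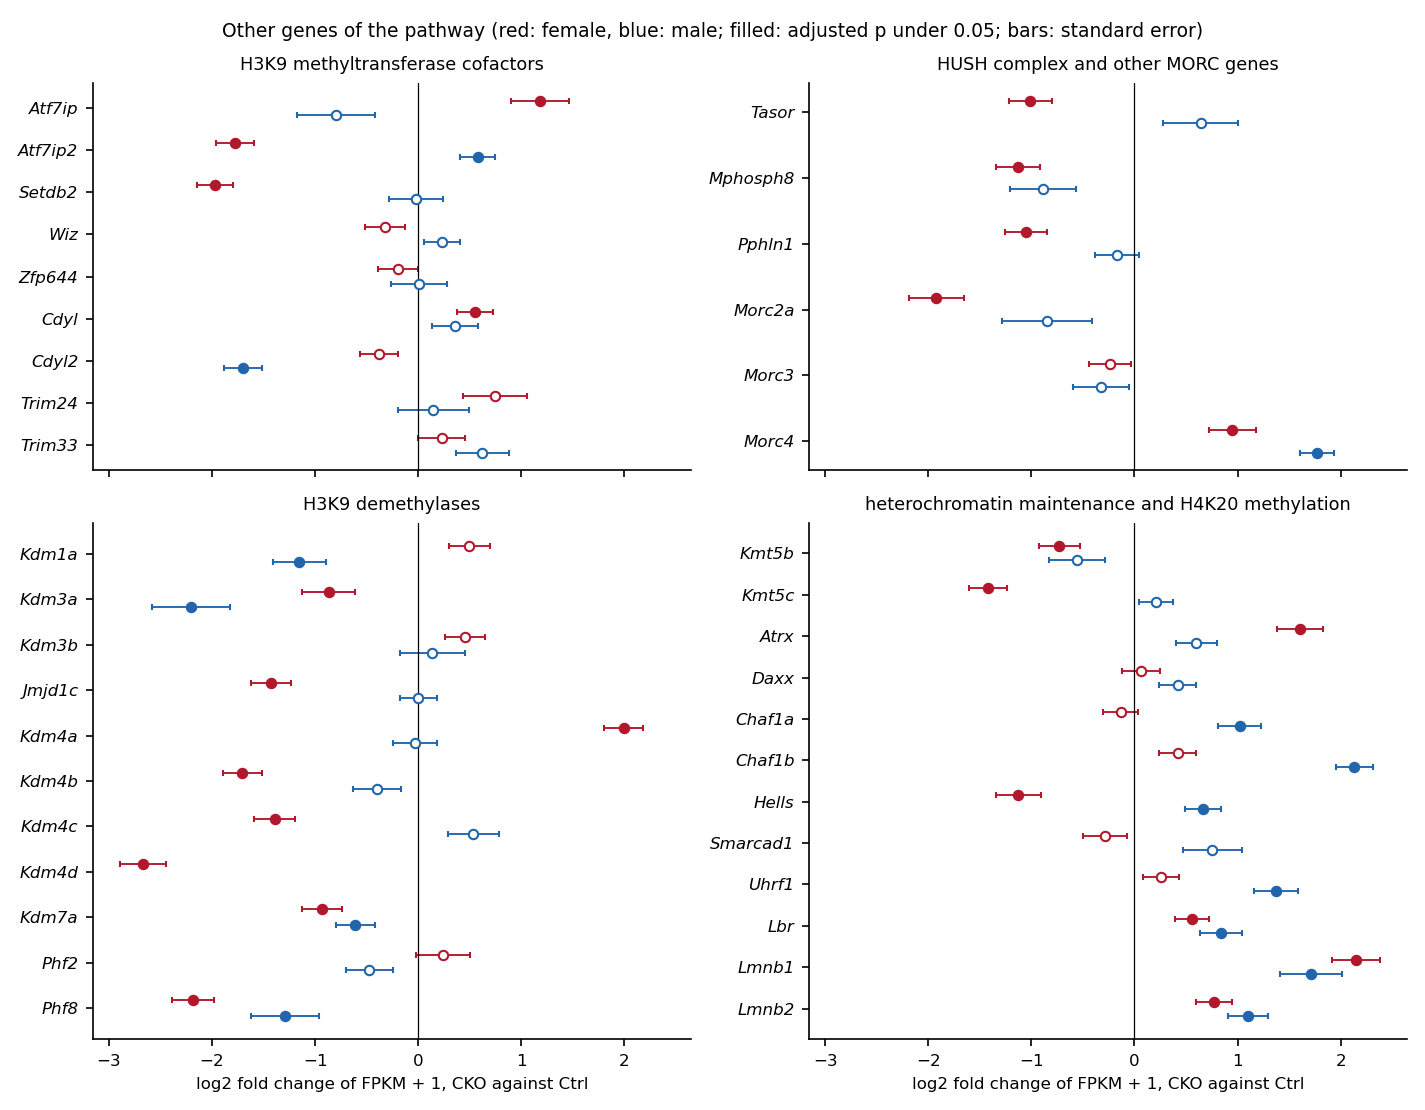
Log2 fold change of FPKM + 1 in CKO against Ctrl for the tested genes of each related list, females in red and males in blue, with limma standard errors and filled symbols for an adjusted p under 0.05. In the maintenance list 7 of 12 genes rose in males, beside 21.0% of all genes tested, and in the demethylase list 7 of 11 fell in females, beside 34.6%.

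Because several of these genes are tied to S phase, genes of dividing cells were set beside them. In males 5 of 6 rose, beside 21.0% of all genes tested, with a median of 1.57. In the paired fit, which added Top2a, all 6 rose, beside 35.1% of all genes tested. Mki67 rose from 2.51 and 1.80 to 17.5 and 11.6 FPKM (log2 fold change 2.28, limma adjusted p = 0.00366), Cdk1 from 18.5 and 20.04 to 65.4 and 75.7 FPKM (log2 fold change 1.82, limma adjusted p = 0.00260), Mcm2 from 77.8 and 56.8 to 231 and 174 FPKM (log2 fold change 1.58, limma adjusted p = 0.00777) and Pcna, the replication clamp, from 90.6 and 112 to 262 and 339.6 FPKM (log2 fold change 1.56, limma adjusted p = 0.00669). Ccnb1 had the highest mean of the list, at 180.2 and 180.1 FPKM in Ctrl and 338 and 321 FPKM in CKO (log2 fold change 0.87, limma adjusted p = 0.0195). This call was lost with a common sum, without male Ctrl replicate 1 (0.87) or 2 (0.87) and without male CKO replicate 1 (0.83) or 2 (0.91). Male CKO libraries thus held more transcript of cell division genes together with more Cbx1, Chaf1b and Uhrf1.

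In females 3 of the 6 rose and 1 fell, beside 26.9% and 34.6% of all genes tested, with a median of 1.03. In the paired fit 4 rose and 2 fell, beside 34.1% and 42.6%. Ccnb1 rose from 13.6 and 11.7 to 248 and 251 FPKM (log2 fold change 4.20, limma adjusted p = 9.74e-05), Mcm2 from 33.8 and 36.7 to 157 and 136 FPKM (log2 fold change 2.02, limma adjusted p = 0.000195) and Cdk1 from 13.9 and 17.9 to 47.6 and 57.0 FPKM (log2 fold change 1.66, limma adjusted p = 0.000576). Top2a, a topoisomerase of mitotic and meiotic chromosomes, fell from 167 and 150.4 to 91.4 and 77.9 FPKM (log2 fold change -0.90, limma adjusted p = 0.00549). Pcna had the highest mean of the list, at 184 and 230.5 FPKM in Ctrl and 247 and 304 FPKM in CKO (log2 fold change 0.41, limma adjusted p = 0.156). In the paired fit its adjusted p was 0.00245 with the replicate block and 0.00245 to 0.582 over all alternatives. The part of cell division in the changes of the 10 genes was not tested.

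Morc1 belongs with the genes that silence transposons in the fetal male germline, and the other genes of that set fell with it in males. Of 13 genes listed, Dnmt3c and Spocd1 were not matched. All 11 found were tested and fell in male CKO, beside 25.3% of all genes tested, with a median of -3.17 beside -0.072 over all genes. The paper had already reported lower transcript levels of de novo DNA methylation and piRNA genes in these same male CKO cells. The list was chosen with earlier results of these data known, so its count is no independent support. Dnmt3l, a cofactor of new DNA methylation, fell from 102 and 108 to 1.54 and 1.95 FPKM (log2 fold change -5.27, limma adjusted p = 0.00213). Piwil4 (MIWI2), the nuclear piRNA carrier, fell from 166 and 132 to 3.17 and 3.53 FPKM (log2 fold change -5.10, limma adjusted p = 0.00213). Its pathway partners fell alike, Gtsf1 from 435 and 569.9 to 15.9 and 30.8 FPKM (log2 fold change -4.43, limma adjusted p = 0.00221) and Tdrd9 from 92.4 and 71.9 to 3.03 and 2.74 FPKM (log2 fold change -4.41, limma adjusted p = 0.00213), and the most abundant, Mael, also a germ cell marker above, from 992 and 1005 to 107 and 148 FPKM (log2 fold change -2.97, limma adjusted p = 0.00230).

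In females the set did not share the rise of Morc1. Of 10 tested genes 7 fell and 2 rose, beside 34.6% and 26.9% of all genes tested, with a median of -1.40. Piwil4 and Tex15, named after their values were seen, are among those that fell. Piwil4 had a CKO mean of 0.515 FPKM, so it passed the filter by its level in Ctrl. Tex15 was read from a locus merged with Ppp2cb, so its fall cannot be assigned to either gene. In the paired fit 8 fell and 2 rose, beside 42.6% and 34.1%. Gtsf1 fell from 55.8 and 87.4 to 9.86 and 13.8 FPKM (log2 fold change -2.48, limma adjusted p = 0.000392), Mael from 669.8 and 631 to 203 and 140.0 FPKM (log2 fold change -1.94, limma adjusted p = 0.000857), Tdrd1 from 13.7 and 10.6 to 3.44 and 1.80 FPKM (log2 fold change -1.89, limma adjusted p = 0.00124) and Tdrd9 from 7.33 and 10.4 to 1.94 and 1.80 FPKM (log2 fold change -1.76, limma adjusted p = 0.000703). The 2 that rose, named after their values were seen, were Dnmt3a, from 2.48 and 2.23 to 8.36 and 6.26 FPKM, and Pld6, from 9.64 and 12.6 to 16.2 and 16.96 FPKM. Dnmt3l, under the filter, was listed at 0 or at 0.0615 FPKM in the female libraries. Morc1 therefore stood with Dnmt3a and Pld6 and apart from most of the silencing genes in female CKO, and with all of those tested in male CKO.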

How the data were processed

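RNA-Seq of 8 libraries, 2 per sex and genotype, was used. The authors aligned reads to mm10 and deposited 1 table per sex with FPKM per locus and library, made with TopHat2 2.2.1 and Cuffdiff 2.1.1 per the submitters' processing notes, while the paper names TopHat 2.1.1 and Cufflinks 2.2.1. The annotation version and the way of normalization are not given in the sources used here. The tables hold no counts, so depth is unknown. Unnamed loci were left out, and starts counted from 0 were raised by 1. A gene with several loci was represented by that with the highest mean. Named genes whose mean reached 1 FPKM were fitted per sex on log2(FPKM + 1) with limma 3.58.1 under R 4.3.3 (lmFit, eBayes with trend), with Benjamini-Hochberg adjustment over all genes tested and a threshold of 0.05. The fit was tested on simulated data.

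Named were all 10 genes, the 4 largest called changes and the most abundant gene of each related list and sex, and the most abundant and absent markers. The most abundant gene was that with the highest mean over all libraries of a sex. The members and lists were chosen with earlier results of these data known. The alternatives tried were another pseudocount (0.1), a stricter filter (mean of 5 FPKM) or none, rescaling to a common sum or by median of ratios, no trend, linear FPKM, a replicate block, the sum of a gene's loci, only loci with status OK, and each library left out. As a check of pairing, the difference of replicate 2 from replicate 1 correlated across genes between Ctrl and CKO (0.500 in females, 0.607 in males). The pairing is the replicate number, whose raw files the labels name in different styles. Figures were drawn with matplotlib 3.10.9.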

Additional observations from a re-analysis of the deposited data

Results flagged for a closer look

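Some genes drew attention because both CKO libraries lay above both controls in a sex and below them in the other. The difference between the sexes was not tested for any of them. As log2 fold changes of CKO against Ctrl, Morc1 was at 3.59 in females and -4.57 in males. Ehmt2 was at 1.08 in females and -1.65 in males, and its partner Ehmt1 at -0.43 in females and 0.85 in males, so the pair had opposite signs within each sex. Suv39h1 was at -1.49 in females and 0.32 in males, and Cbx1 at -0.59 in females and 1.64 in males.

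Among the genes of other lists, the SETDB1 partner Atf7ip was at 1.18 in females and -0.80 in males, and its paralogue Atf7ip2 at -1.78 in females and 0.58 in males. Kdm1a was at 0.50 in females and -1.15 in males. Kmt5c was at -1.42 in females and 0.21 in males, Hells at -1.13 in females and 0.67 in males and Top2a at -0.90 in females and 0.79 in males. These are 6 of 34 genes examined, namely those the rule named for size or abundance in lists other than the markers and that both tables tested. Markers and genes named after their values were seen were not examined for it. The pattern held for 20.7% of all names tested in both tables.

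The female table lists Morc1 in another entry with the same coordinates that the comparisons did not use. It drew attention because its FPKM was 1.90 and 0.774 in CKO replicates 1 and 2 and 0.113 and 0 in Ctrl.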

How the results depend on the processing

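With all libraries kept, 186 of 200 fold changes of the 10 genes kept their direction and side of the threshold over the alternatives. The same held for 473 of 497 of other named genes, and 107 of 120 counts stayed within 1.5 times. Other filters, no trend, the replicate block and the limit to status OK leave a fold change as it was, so only its call could move there. Among the 10 genes, summing loci could alter Morc1 in females alone. These shares therefore hold many cases whose direction was fixed. The paralogue values held in 20 of 20 cases, but the sum of a gene's loci was the only alternative tried on them. Each of these paralogues has a single locus in each sex, so that alternative could not change them. The sign of Suv39h2 turned with median-of-ratios rescaling in females (0.11) and with a common sum in males (-0.038). The replicate block raised the count of higher related genes to 13 in females and in males gave 4313 higher and 5058 lower genes of all tested, 5 higher of the 10, and 17 higher and 12 lower related genes. Among the 10 genes and the related genes named by rule it changed no call other than those given beside the results. A common sum gave 1468 higher genes of all tested and 4 higher related genes in males. On linear FPKM, 0 of the 10 were called higher by limma in males, and 4 related genes higher and 2 lower. A mean of at least 5 FPKM, which tests fewer genes, left 2029 lower genes of all tested and 3 lower related genes in males. With each library left out, where the lone sample is assumed to vary like the other group, 67 of 80 fold changes of the 10 genes and 173 of 200 of other named genes kept direction and call, and 42 of 48 counts stayed within 1.5 times. The log2 fold change ranged from -0.15 to 0.059 for Suv39h2 in females, from -0.76 to 0.12 for Setdb1 in males and from -0.29 to 0.12 for Cbx5 in males. Male counts ranged from 1716 to 2077 for all higher genes, from 1 to 2 for higher ones of the 10, from 4 to 9 for higher and from 2 to 6 for lower related genes. The cause was not tested for any of these shifts. With 2 libraries a group and no counts in the tables, small changes and genes at low levels are the least certain.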
